A study of Caenorhabditis elegans with 12 samples.

Results

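The GATA transcription factor genes of the intestine and epidermis of Caenorhabditis elegans are described here in whole worms at day 10. The genes are elt-1, elt-2, elt-3, elt-4, elt-6, elt-7, egl-18, end-1 and end-3. They were taken by symbol from the table of 46739 genes, and all 9 were found and had enough counts to be tested, as did 18342 genes of the table.

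The worms were of 4 genotypes: wild-type N2, the daf-2 mutant, a double mutant (spr-4;spr-3) and a triple mutant (spr-4;spr-3;daf-2), with 3 biological replicates each, 12 libraries in all. Every strain has the N2 background, was grown at 20°C and was collected at day 10, and 100 worms per strain were extracted whole. The insulin/IGF-like receptor is made from daf-2, and worms with weak daf-2 live long, which needs the factor DAF-16. SPR-3 and SPR-4 are zinc finger repressors likened to vertebrate REST, a silencer of neuronal genes. No allele name is given in the sources used here, so transcripts of the mutated genes cannot check the labels. In N2 they stood at 36.9 ± 1.83 CPM (daf-2), 22.5 ± 1.64 CPM (spr-3) and 58.9 ± 16 CPM (spr-4), and in the triple mutant at 64.5 ± 7.39, 40.4 ± 2.31 and 32.7 ± 9.68 CPM, so that each was still transcribed where it is labelled mutant.

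GATA factors bind DNA sites with the core letters GATA through a zinc finger. In the worm embryo, END-1 and END-3 turn the E blastomere into endoderm, and ELT-7 and ELT-2 then establish and maintain the intestine for the rest of life. ELT-2 and ELT-7 share targets in digestion, yolk, metal handling and defence, and ELT-4 is a very short relative with no known function. In the epidermis ELT-1 specifies the fate, ELT-3 acts downstream of it in the main epidermis, and EGL-18 (also called ELT-5) and ELT-6 act in the seam cells and the vulva. Levels of elt-3, egl-18 and elt-6 have been discussed as part of a circuit that shifts with age.

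The genes lie on 3 chromosomes of WBcel235, all on the forward strand. On chromosome IV, egl-18 (WBGene00001186) spans 1902322 to 1917840 and elt-6 (WBGene00001253) spans 1917977 to 1921643, only 136 bases further on, while elt-1 (WBGene00001249) spans 9614995 to 9620280. Chromosome V holds elt-7 (WBGene00015981) from 4770670 to 4773086, end-1 (WBGene00001310) from 13985128 to 13987074 and end-3 (WBGene00001311) from 14014695 to 14015980, so end-1 and end-3 are 27620 bases apart. On the X chromosome, elt-4 (WBGene00001252) spans 10475527 to 10475959, 5280 bases before elt-2 (WBGene00001250), which spans 10481240 to 10483441, and elt-3 (WBGene00001251) spans 13934874 to 13941216. The exons of end-3 meet those of the antisense chemoreceptor-type gene srh-308 at their ends. The kit does not mark the strand, and how the counting treated reads over both genes is not stated. Per library, srh-308 had at most 24 counts and end-3 had 10 to 158. The part of srh-308 reads in the counts of end-3 was not tested. No exon of the other 8 genes overlaps an exon of another gene.

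Library totals ran from 11892808 to 46493665 counts. CPM below are counts divided by the effective library size, which TMM adjusts for composition, given as mean ± SD with n = 3 per genotype. Log2 fold changes have ± standard error. A gene is called changed at an edgeR adjusted p under 0.05 over all tested genes. Replicates differed by far more than sampling noise, and nothing in the labels says what a replicate number shares. Replicate 2 of the double mutant stood out, with a chi-square per degree of freedom of 144 and 164 against its mates. The other pairs of replicates gave 21.7 to 66.8. Library names end in a digit of unstated meaning, which is 2 in all 3 daf-2 libraries, 2 of 3 triple mutants and 1 of 3 in N2 and in the double mutant. In fits of the libraries ending in 2 alone, N2 and the double mutant therefore have 1 library each, assumed to vary like the others, and values against them are given with no weight as support.

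Per length, elt-7 had by far the highest transcript level of the family in every genotype. Over the 12 libraries it averaged 77.6 CPM per kb of exon, above 92.3% of the tested genes with a known exon length. Next came elt-4 at 19.8 CPM per kb, elt-3 at 14.3, egl-18 at 11.1, elt-6 at 7.63, elt-2 at 6.24 and elt-1 at 4.93. The embryonic genes end-3 and end-1 were lowest, at 2.37 and 1.88 CPM per kb. In N2 the libraries of elt-7 (mean 107 CPM per kb) did not overlap those of elt-4 (14.4). In N2, elt-4, elt-3 (13.6) and egl-18 (12.3) formed a middle group in which neighbours in the order overlapped. The order below it in N2 was elt-2 (6.78), elt-6 (5.9) and elt-1 (4.28), again with overlap between neighbours, and then end-1 (1.05) and end-3 (0.917), which overlapped each other. The order moved most for elt-6, whose mean per length was below that of elt-2 with the spr genes intact and above it with them mutated. The exon of elt-4 covers only 388 bases, so its counts per library are below those of elt-2 in N2 although its level per kb is higher.

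**Figure D1:**
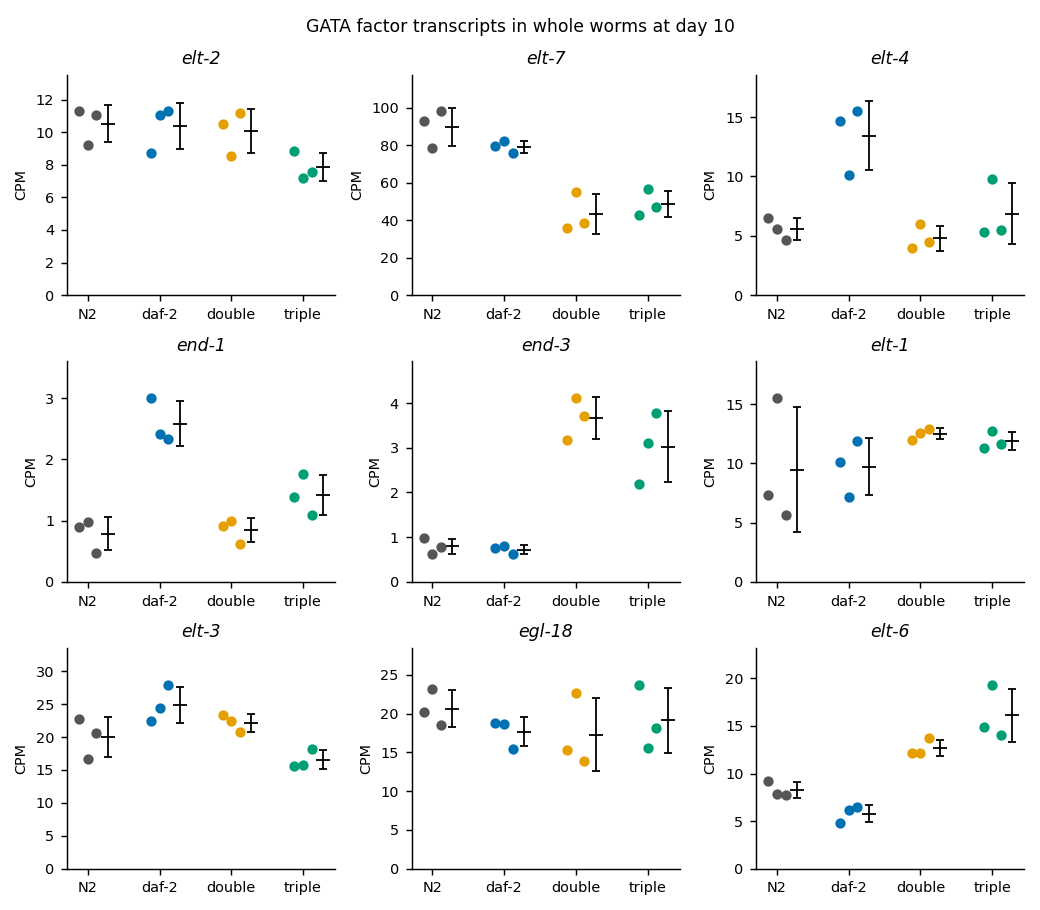
TMM-scaled CPM (y axes, each from 0) of the 9 GATA genes in each library, by genotype (x axes). Points are the 3 replicates, and the black bars beside them are mean ± SD. The points of elt-7 are lower, and those of end-3 and elt-6 higher, in both strains with mutated spr genes, while elt-4 and end-1 stand out in the daf-2 strain.

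Of the 9 genes, 6 changed in at least 1 of the 6 comparisons and 3 (elt-1, elt-2 and egl-18) changed in none. Mutation of spr-3 and spr-4 went with less elt-7 and more end-3, with daf-2 intact or mutant. It went with more elt-6 in the daf-2 mutant, while with daf-2 intact the elt-6 call is at the threshold and is kept in 1 of 12 fits that leave out a library. The daf-2 mutation with the spr genes intact went with more elt-4 and more end-1. Of the 54 tests, 14 passed, and 8 of these 14 passed with every library left out in turn. Of all tested genes, 8.32% to 22.2% were called per comparison. Their share called in at least 1 of the 6 comparisons was not computed. Neither the 6 of 9 genes nor the 14 of 54 tests is therefore read as a trait of the family. Since RNA came from whole worms, fewer cells of a type and less RNA per cell cannot be told apart.

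Counts in the family are read here against the share of all tested genes. In daf-2 against N2, 2 of the 9 genes changed, both higher, where 20.6% of all tested genes changed, 9.58% higher and 11% lower. The libraries of these genotypes did not overlap for 3 of the 9, against 39.9% of all genes. In the double mutant against N2, 2 rose and 1 fell (of all genes 11.7% changed, 5.07% higher and 6.6% lower), with 3 not overlapping (28.5%). In the triple mutant against daf-2, 2 rose and 3 fell (13.4% changed, 6.77% higher and 6.65% lower), with 6 not overlapping (36%). In the triple mutant against N2, 2 rose and 1 fell (22.2% changed, 10.8% higher and 11.3% lower), with 5 not overlapping (38.9%). Between the triple and the double mutant edgeR called 0 (14.9% changed, 7.02% higher and 7.92% lower), and 3 did not overlap (30.7%). There 1 gene, elt-3, had an unadjusted p under 0.05, and DESeq2 and limma-voom each called 0. For the interaction 1 of the 9 was called, with a negative value (8.32% called, 4.89% positive and 3.43% negative). The median log2 fold change of the family was -0.4 in the triple mutant against daf-2, where that of all genes was -0.01, and lay between -0.13 and 0.3 in the other 5 comparisons. Comparisons that share a genotype share its libraries, so their values are not independent.

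**Figure D2:**
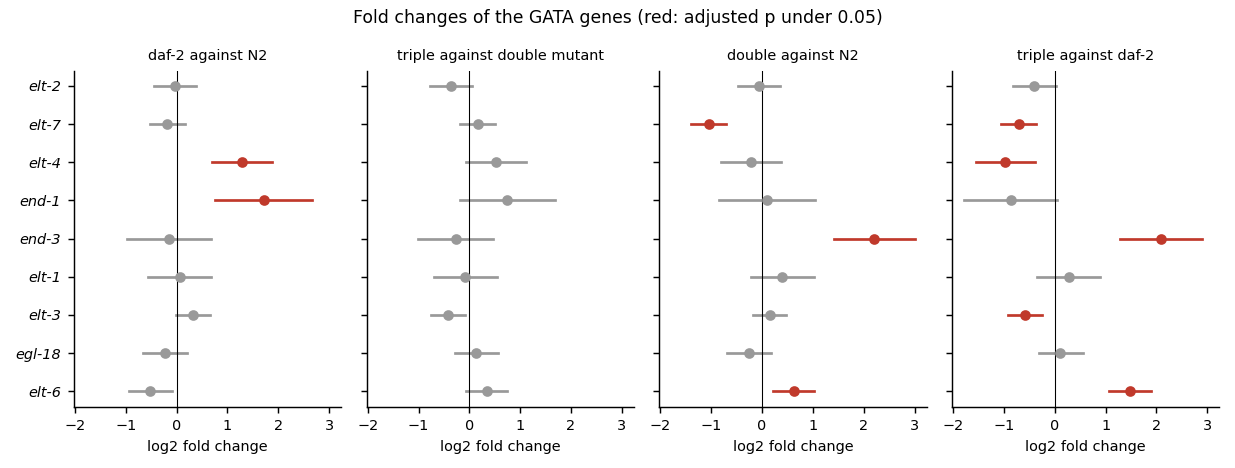
Log2 fold changes (x axes) of the 9 GATA genes (y axis) with 95% intervals in 4 comparisons, red where the edgeR adjusted p is under 0.05. In the triple against the double mutant 0 genes are red, and in the triple mutant against daf-2 the red genes are elt-7, elt-4 and elt-3 to the left and end-3 and elt-6 to the right.

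The intestinal gene elt-7 fell in each of the 3 comparisons of spr mutants with strains in which spr-3 and spr-4 are intact. N2 libraries gave 93.2, 78.7 and 98.2 CPM of elt-7, daf-2 libraries 79.5, 82.1 and 75.9, double mutants 36.0, 55.3 and 38.7, and triple mutants 42.6, 56.4 and 46.9. All 6 spr mutant libraries are thus below all 6 others. From 90.0 ± 10.1 CPM in N2 it went to 43.3 ± 10.5 in the double mutant, a ratio of 0.481 (95% interval 0.379 to 0.612, log2 fold change -1.05 ± 0.16, edgeR adjusted p = 0.00097). From 79.2 ± 3.08 in daf-2 it went to 48.7 ± 7.08 in the triple mutant, a ratio of 0.615 (0.484 to 0.781, log2 fold change -0.7 ± 0.16, edgeR adjusted p = 0.0093). Among libraries whose name ends in 2 the log2 value against daf-2 was -0.66 (edgeR adjusted p = 0.013), and that of the double mutant against N2 was -1.39, from 1 library each. The call against daf-2 is lost without replicate 1 of the triple mutant (edgeR adjusted p = 0.052). The triple mutant was also below N2 (-0.89 ± 0.16, edgeR adjusted p = 0.00091). Neither daf-2 alone (-0.19 ± 0.16, edgeR adjusted p = 0.47) nor daf-2 on top of the spr mutations (triple against double, 0.17 ± 0.16, edgeR adjusted p = 0.56) passed.

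The intestinal master regulator elt-2 passed in none of the comparisons. N2 libraries gave 11.3, 9.24 and 11.1 CPM of elt-2, daf-2 libraries 8.75, 11.1 and 11.3, double mutants 10.5, 8.56 and 11.2, and triple mutants 8.84, 7.17 and 7.59. The 3 triple mutant libraries are the lowest of N2 and the triple mutant, without overlap, but the difference did not pass (-0.43 ± 0.2, edgeR adjusted p = 0.14). In the double mutant against N2 the fold was 0.956, with an interval of 0.717 to 1.27. The ratio of 0.481 for elt-7 lies below that interval. In the triple mutant against daf-2 the fold of elt-2 was 0.757 (interval 0.567 to 1.01, edgeR adjusted p = 0.2). The ratio of 0.615 for elt-7 in that comparison lies inside this interval.

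The short relative elt-4 was highest in daf-2. N2 libraries gave 6.53, 5.54 and 4.66 CPM of elt-4, daf-2 libraries 14.7, 10.1 and 15.5, double mutants 3.95, 5.99 and 4.46, and triple mutants 5.32, 9.8 and 5.5. The daf-2 libraries lie above all 9 others. Against N2 it was 2.42-fold higher in daf-2 (interval 1.61 to 3.65, log2 fold change 1.28 ± 0.28, edgeR adjusted p = 0.0036), a call kept without any single library. Among libraries whose name ends in 2 it was 1.03 (edgeR adjusted p = 0.1, with 1 N2 library). From daf-2 to the triple mutant it fell (-0.97 ± 0.28, edgeR adjusted p = 0.028), but this call is lost without replicate 1 or 3 of daf-2 or of the triple mutant (edgeR adjusted p up to 0.12). With the last digit of the library names as a term the call is also lost (log2 value -0.93, edgeR adjusted p = 0.053). It is lost too among libraries whose name ends in 2, with a log2 value of -0.82. Adding daf-2 to the double mutant gave a difference that did not pass (0.52 ± 0.28, edgeR adjusted p = 0.24). The interaction did not pass either ( -0.76 ± 0.39, edgeR adjusted p = 0.26).

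Of the endoderm genes, end-1 rose in daf-2 and end-3 rose in the spr mutants. N2 libraries gave 0.901, 0.983 and 0.476 CPM of end-1, daf-2 libraries 3.0, 2.42 and 2.33, double mutants 0.909, 0.998 and 0.625, and triple mutants 1.39, 1.76 and 1.1. It was 3.27-fold higher in daf-2 than in N2 (interval 1.69 to 6.33, log2 fold change 1.71 ± 0.45, edgeR adjusted p = 0.012). This rests on 14 to 30 counts per library in N2 and 30 to 114 in daf-2, and the call is lost without replicate 3 of N2 or replicate 1 of daf-2 (edgeR adjusted p = 0.057 in both). With the last digit of the library names as a term the call is also lost (log2 value 1.5, edgeR adjusted p = 0.069). Among libraries whose name ends in 2, with 1 N2 library, the log2 value was 1.49. The triple mutant lay below daf-2 and above the double mutant without overlap, but neither difference passed (-0.86 ± 0.43 and 0.75 ± 0.44, edgeR adjusted p = 0.21 and 0.29).

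N2 libraries gave 0.976, 0.623 and 0.782 CPM of end-3, daf-2 libraries 0.75, 0.805 and 0.614, double mutants 3.18, 4.11 and 3.7, and triple mutants 2.2, 3.1 and 3.78. All 6 spr mutant libraries lie above all 6 others. Relative to N2, the double mutant had 4.61-fold more end-3 (interval 2.66 to 7.99, edgeR adjusted p = 0.0018) and relative to daf-2 the triple mutant had 4.24-fold more (2.43 to 7.43, edgeR adjusted p = 0.002). The triple mutant also exceeded N2 (1.93 ± 0.37, edgeR adjusted p = 0.0013). Each of these 3 calls was kept without any single library. Among libraries whose name ends in 2 the log2 value against daf-2 was 1.91 (edgeR adjusted p = 0.016). Against the 1 N2 library it was 1.68 in the 1 double mutant library and 1.42 in the triple mutant, and neither passed (edgeR adjusted p = 0.17 and 0.19). The interaction was -0.12 ± 0.53 (edgeR adjusted p = 0.93), so a difference between the effects of the spr mutations with daf-2 mutated and intact was not detected (95% interval -1.23 to 0.99). Counts were low, at 10 to 30 per library with the spr genes intact and 60 to 158 with them mutated. Of the coding genes on either side of end-3, the arsenite-inducible gene aip-1 fell in the double mutant (-0.6 ± 0.16, edgeR adjusted p = 0.023). The metallothionein gene mtl-2, an intestinal gene, gave -0.75 ± 0.3 there (edgeR adjusted p = 0.12), so neither flanking gene rose with end-3 in that strain. The overlapping gene srh-308 had log2 values above 0 where end-3 rose. They were 1.16 ± 1.33 in the double mutant against N2 and 1.68 ± 1.37 in the triple mutant against daf-2. Neither passed (edgeR adjusted p = 0.63 and 0.48), at no more than 24 counts per library.

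Markers of oocytes, embryos and sperm were read beside these embryonic genes. The 12 oocyte and germline markers summed to 5140 to 6580 CPM in N2, 2680 to 3120 in daf-2, 5410 to 5680 in the double mutant and 4220 to 5120 in the triple mutant, all 12 with counts. The 14 embryo markers, all with counts in every genotype, summed to 367 to 593 CPM in N2, 355 to 478 in daf-2, 466 to 614 in the double mutant and 289 to 386 in the triple mutant. The 10 sperm markers summed to 52.1 to 67.9 CPM in N2 and 52.6 to 67.9 in daf-2. They summed to 64.4 to 132 CPM in the double mutant (9 of 10 with counts) and 46 to 69.8 in the triple mutant. The rise of end-1 in daf-2 thus stood beside lower oocyte and germline markers. That of end-3 in the double mutant stood beside embryo and sperm markers that overlapped N2, the sperm markers with a higher median (80.9 against 54.7 CPM). Where end-3 rose between daf-2 and the triple mutant, oocyte and germline markers were higher without overlap, and embryo and sperm markers overlapped. The part of egg, embryo or sperm RNA in these results was not tested.

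Among the epidermal genes, elt-6 rose with mutation of the spr genes while its upstream neighbour egl-18 did not pass. N2 libraries gave 9.23, 7.9 and 7.75 CPM of elt-6, daf-2 libraries 4.78, 6.12 and 6.44, double mutants 12.2, 12.2 and 13.7, and triple mutants 14.9, 19.3 and 14.1. The 4 genotypes do not overlap at all, with daf-2 lowest, then N2, the double mutant and the triple mutant. From 5.78 ± 0.88 CPM in daf-2 it rose to 16.1 ± 2.75 in the triple mutant, 2.79-fold (interval 2.08 to 3.73, edgeR adjusted p = 0.00018). Against N2 the triple mutant was 1.94-fold higher (1.46 to 2.58, edgeR adjusted p = 0.0019). Both calls were kept without any single library. Among libraries whose name ends in 2, the log2 values were 1.58 against daf-2 (edgeR adjusted p = 0.00079) and 0.87 against the 1 N2 library (edgeR adjusted p = 0.1). The 1.53-fold (1.15 to 2.03) rise in the double mutant over N2 is at the threshold (edgeR adjusted p = 0.049) and passes in only 1 of the 12 fits that leave out a library. The lower value in daf-2 than in N2 did not pass (-0.52 ± 0.2, edgeR adjusted p = 0.075), nor did the interaction (0.86 ± 0.27, edgeR adjusted p = 0.063), while DESeq2 called both (adjusted p = 0.042 and 0.017). N2 libraries gave 20.2, 23.2 and 18.6 CPM of egl-18, daf-2 libraries 18.8, 18.7 and 15.5, double mutants 15.3, 22.7 and 13.9, and triple mutants 23.7, 15.6 and 18.1. They overlapped in every pair of genotypes, and the largest of its 5 pairwise differences was -0.26 ± 0.2 (double mutant against N2, edgeR adjusted p = 0.45).

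The 8 seam cell markers, all with counts in every genotype, summed to 6.1 to 8.4 CPM in N2, 16.5 to 19.9 in daf-2, 10.2 to 12.6 in the double mutant and 20.2 to 27.9 in the triple mutant. They were thus higher in daf-2 than in N2, where elt-6 was lower. The double mutant exceeded N2 and the triple mutant exceeded daf-2 without overlap, as they did for elt-6. The part of these markers in the values of elt-6 was not tested.

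The epidermal gene elt-3 fell when the spr mutations were added to daf-2. N2 libraries gave 22.7, 16.7 and 20.6 CPM of elt-3, daf-2 libraries 22.5, 24.4 and 27.9, double mutants 23.3, 22.5 and 20.7, and triple mutants 15.6, 15.8 and 18.2. The fall from 24.9 ± 2.76 to 16.5 ± 1.43 CPM passed (-0.59 ± 0.16, edgeR adjusted p = 0.019), but not without replicate 3 of daf-2 (0.1) or replicates 1 or 2 of the triple mutant (0.074 and 0.06, all edgeR adjusted p). In the double mutant against N2 the difference was 0.15 ± 0.16 (edgeR adjusted p = 0.59). The interaction between the spr mutations and daf-2 reached -0.74 ± 0.22 (edgeR adjusted p = 0.048), and this call was lost in each of the 12 fits that leave out a library (edgeR adjusted p = 0.051 to 0.16). N2 libraries gave 7.32, 15.5 and 5.61 CPM of elt-1, the epidermal fate gene, daf-2 libraries 10.1, 7.17 and 11.9, double mutants 12, 12.6 and 12.9, and triple mutants 11.3, 12.7 and 11.6. Replicate 2 of N2 is the highest of the 12 and the other N2 libraries are among the 3 lowest. Without it elt-1 would pass as higher than N2 in the double (log2 fold change 0.95, edgeR adjusted p = 0.022) and triple mutants (0.88, edgeR adjusted p = 0.018), while with all libraries it did not (0.4 ± 0.29 and 0.33 ± 0.29, edgeR adjusted p = 0.41 and 0.47).

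Ratios of counts within a library do not depend on how libraries are scaled. The pairs shown were chosen after the values were seen, and are given as descriptions. N2 libraries had elt-7 to elt-2 ratios of 8.23, 8.51 and 8.83, daf-2 libraries 9.09, 7.38 and 6.72, double mutants 3.42, 6.47 and 3.46, and triple mutants 4.82, 7.87 and 6.19. The double mutant does not overlap N2, while the triple mutant overlaps daf-2. The ratio of elt-6 to the adjacent egl-18 was 0.34 to 0.458 in N2, 0.254 to 0.414 in daf-2, 0.539 to 0.986 in the double mutant and 0.631 to 1.24 in the triple mutant, so that all 6 spr mutant libraries lie above the other 6. The ratio of end-3 to end-1 was 0.25, 0.333 and 0.263 in daf-2 and 3.5, 4.12 and 5.91 in the double mutant, with N2 (0.633 to 1.64) and the triple mutant (1.58 to 3.43) between them. The ratio of elt-4 to elt-2 was 0.906 to 1.68 in daf-2 and 0.419 to 0.599 in N2, without overlap, while the triple mutant (0.602 to 1.37) overlapped daf-2 and the double mutant (0.375 to 0.7) overlapped N2.

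**Figure D3:**
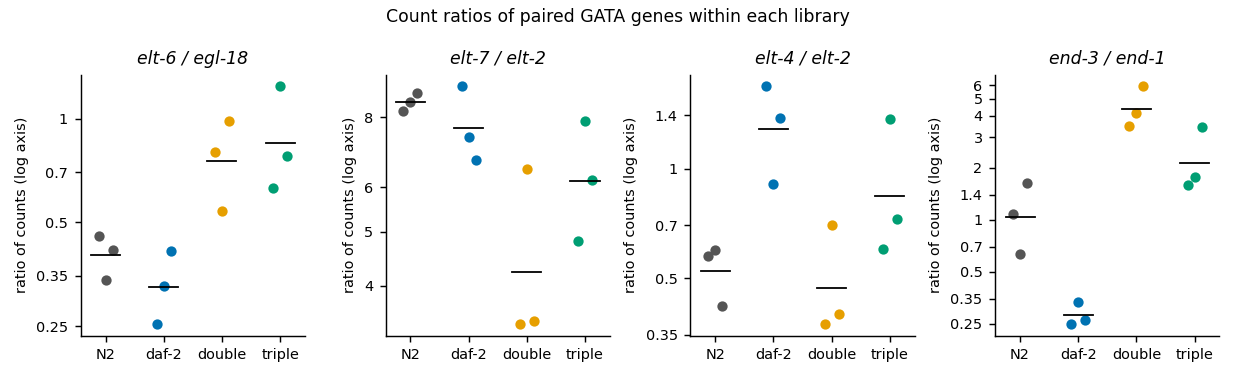
Ratios of raw counts within each library (y axes, log scale) for 4 pairs of GATA genes, by genotype (x axes). Points are the 3 replicates and lines their geometric means. The ratio of end-3 to end-1 runs from a geometric mean of 0.28 in daf-2 to 4.4 in the double mutant.

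Over the 12 libraries, the closest followers within the family by Pearson correlation of log2 CPM were elt-4 with end-1 (0.9) and elt-6 with end-3 (0.86), and the most opposed were elt-7 with end-3 (-0.85) and elt-7 with elt-6 (-0.73). The adjacent genes egl-18 and elt-6 gave -0.14, and the neighbours elt-4 and elt-2 gave -0.08. These values describe 12 libraries of 4 genotypes that share their depth and scaling, and include the differences between genotypes. Among 6183 other named genes with at least 5 CPM on average, those most like elt-7 were dct-11 (0.994), the C-type lectin gene clec-97 (0.974) and drr-1 (0.97). Since likeness over these libraries chose them, their log2 values in the double mutant against N2 are a description, at -1.0 for dct-11 and -1.47 for clec-97. Nearest to elt-6 were the cuticle collagen gene col-71 (0.969), acl-13 (0.967) and ife-3 (0.953), which encodes an eIF4E cap-binding protein. Nearest to elt-4 was the ferritin gene ftn-1 (0.965), an intestinal iron store gene whose promoter is known to be bound by ELT-2, then pno-1 (0.937) and the insulin-like gene ins-10 (0.926). For end-3 they were bnc-1 (0.966), ttbk-5 (0.965) and tcl-2 (0.961), and for end-1 exc-15 (0.942), pho-11 (0.931) and sql-1 (0.928). For elt-2, elt-3, elt-1 and egl-18 the best values were lower, at 0.886 (mff-1), 0.909 (the zinc transporter gene zipt-2.1), 0.931 (unc-41) and 0.866 (melo-1).

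Genes of the intestine, several of them studied as ELT-2 targets, were read beside the intestinal factors. The list held 20 genes, all tested. In daf-2 against N2, 3 rose and 12 fell (75%, against 20.6% of all genes), with a median log2 fold change of -0.99, where that of all genes was 0.06. Falls were seen for act-5, an actin of the gut brush border (-2.78 ± 0.18), for ifb-2, an intermediate filament of its terminal web (-2.77 ± 0.22), and for mtl-2 (-2.53 ± 0.31), while the metallothionein gene mtl-1, a DAF-16 target, rose (1.86 ± 0.22). These falls came with the values of elt-2 and elt-7 given above for daf-2, which did not pass. In the double mutant, where elt-7 fell, 1 of the 20 rose and 3 fell (20%, against 11.7%), with a median of -0.32. These 3 were act-5 (-0.86 ± 0.17), the ferritin gene ftn-2 (-1.01 ± 0.22) and the yolk protein gene vit-2 (-1.53 ± 0.36). In the triple mutant against daf-2, 2 rose and 2 fell (20%, against 13.4%), with a median of -0.09. There ftn-1 (-0.95 ± 0.18) and the gut esterase gene ges-1 (-0.94 ± 0.26), a classic GATA target, fell, and ifb-2 rose (0.75 ± 0.21). In the double mutant, where elt-7 also fell, ges-1 lay above N2 without overlap but did not pass (0.51 ± 0.26, edgeR adjusted p = 0.22). For the interaction 3 of the 20 were called with a positive value and 1, ges-1, with a negative value (20%, against 8.32%). That of ges-1 was -1.45 ± 0.37 (edgeR adjusted p = 0.023). In the triple against the double mutant 1 rose and 8 fell (45%, against 14.9%), among them the cadmium-responsive gene cdr-1 (-2.51 ± 0.35). Against N2, the triple mutant, where elt-7 also fell, had 1 of the 20 higher and 11 lower (60%, against 22.2%), with a median of -1.04. Intestine markers (11 of 12 with an ID, all 11 with counts), which share genes with this list, summed to 1870 to 2740 CPM in N2, 1170 to 1350 in daf-2, 894 to 1650 in the double mutant and 809 to 1150 in the triple mutant. Lower intestine markers thus stand beside the lower elt-7 of the double mutant, and also beside the elt-7 of daf-2, which did not differ past the threshold from N2. Their part in the values of elt-7 was not tested.

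**Figure D4:**
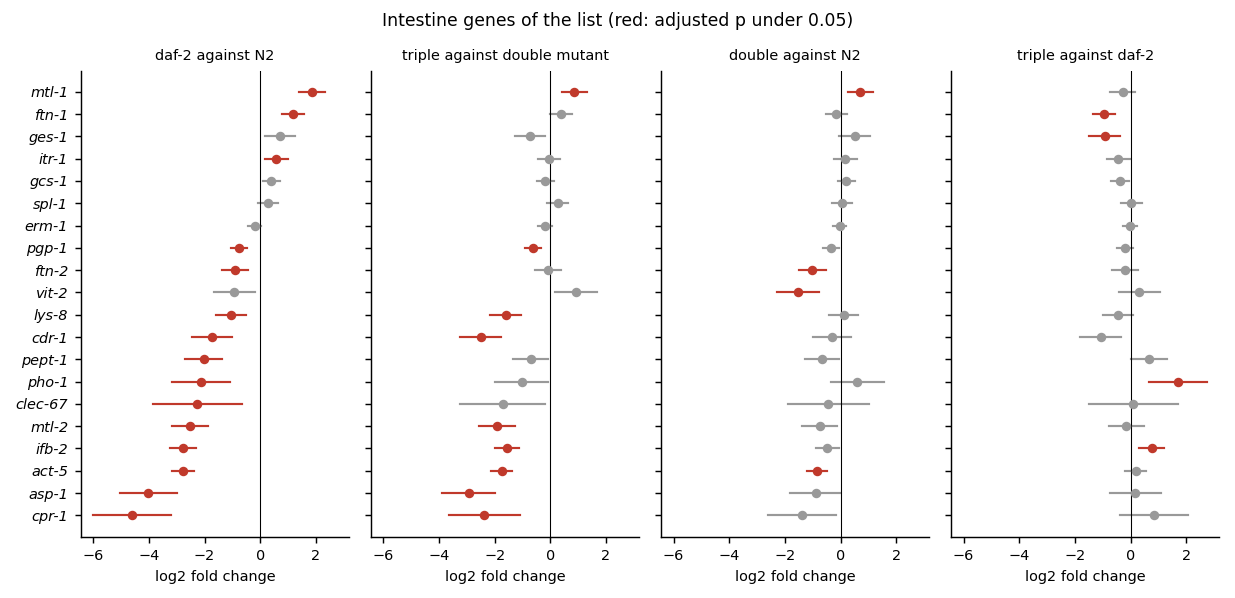
Log2 fold changes (x axes) with 95% intervals of the 20 intestine genes of the list (y axis, ordered by daf-2 against N2) in 4 comparisons, red where the edgeR adjusted p is under 0.05. In daf-2 against N2 15 genes are red, 12 of them to the left of 0, and in the double mutant against N2 4 are red.

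Epidermal genes (16 listed, 14 tested) changed in both directions. In daf-2 against N2 3 changed, all lower (21.4%, near the 20.6% of all genes, median -0.33), and in the triple mutant against daf-2 3 rose and 1 fell (28.6%, against 13.4%, median 0.35). In the double mutant against N2, 1 rose (che-14) and 2 fell, cnc-2 and gpdh-1 (-0.75 ± 0.21), which is 21.4% against 11.7%, median -0.21. In the triple mutant against N2, 4 rose and 4 fell (57.1%, against 22.2%, median 0.11). The apical transport gene che-14, which is needed for cuticle secretion, was higher in both spr mutants. It went from 5.66 ± 1.42 CPM in daf-2 to 20.5 ± 2.24 in the triple mutant (1.88 ± 0.23, edgeR adjusted p = 8.6e-05) and from 10.1 ± 2.82 in N2 to 22.5 ± 1.46 in the double mutant (1.15 ± 0.22, edgeR adjusted p = 0.004), while from the double to the triple mutant the value was -0.14 ± 0.22, where that of elt-6 was 0.34 ± 0.19. The moulting regulator gene nhr-23 rose between daf-2 and the triple mutant (1.02 ± 0.22), and the STAT gene sta-2, which acts in epidermal defence, fell (-0.51 ± 0.16) as elt-3 did. The antimicrobial peptide gene cnc-2 fell relative to N2, with log2 values of -2.51 ± 0.34 for daf-2 and -1.06 ± 0.32 for the double mutant. Of 11 tested seam cell genes (13 listed), 2 rose and 1 fell in the triple mutant against daf-2 (27.3%, against 13.4% of all genes), among them the fusogen gene eff-1 (1.16 ± 0.36) and the heterochronic gene lin-28 (-0.67 ± 0.21). The median of this list was 0.6 there and 0.53 in the double mutant relative to N2, where 1 gene rose (9.09%, below the 11.7% of all genes). It was also 0.6 in daf-2 relative to N2, where elt-6 was lower and the smallest edgeR adjusted p of the 11 genes was 0.054 (nhr-74). Epidermis markers (10) summed to 205 to 305 CPM in N2, 161 to 237 in daf-2, 111 to 204 in the double mutant and 111 to 157 in the triple mutant.

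Of 15 genes listed for endoderm specification and its Wnt signalling, 1 rose and 3 fell in daf-2 against N2 (26.7%, against 20.6% of all genes, median 0.04). The Wnt gene mom-2 (-1.53 ± 0.18), the germline repressor gene pie-1 (-1.01 ± 0.16) and the Nemo-like kinase gene lit-1 (-0.59 ± 0.14) fell, and the beta-catenin gene sys-1 rose (0.72 ± 0.25). In the double mutant, where end-3 rose, only the beta-catenin gene bar-1 was called among these 15, as lower (-0.77 ± 0.23), which is 6.67% against 11.7% of all genes. In the triple mutant against daf-2, pie-1 (0.82 ± 0.16) and mom-2 (0.68 ± 0.18) rose (13.3%, against 13.4%). The direct activators of end-1 and end-3, med-1 and med-2, are near-identical copies, so their counts are uncertain, since how the counting treated reads that match both is not stated. They reached at most 0.503 and 0.886 CPM in a library, and neither was called in any comparison. Standard errors were large. In the double mutant against N2 the log2 values were 1.62 ± 1.48 for med-1 and 2.17 ± 1.11 for med-2. In the triple mutant against daf-2 they were 0.64 ± 1.24 and -0.88 ± 1.07, so changes of these genes cannot be judged. The other genes with GATA-type zinc fingers, egl-27 and lin-40, encode relatives of MTA proteins of the NuRD complex. They stood at 123 to 143 and 71.3 to 97.2 CPM as genotype means, and of these lin-40 alone was called, as higher in the triple than in the double mutant (0.45 ± 0.14, edgeR adjusted p = 0.045).

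Of 10 transcription factors that work in the intestine or in stress responses, 2 rose and 1 fell in daf-2 against N2 (30%, against 20.6% of all genes). The gene pqm-1, whose protein is associated with a GATA-like element of DAF-16 class II genes, was at 81.8 ± 11 CPM in N2, 86.6 ± 13 with the spr mutations alone, 48.9 ± 6.76 with daf-2 alone and 28.8 ± 5.94 with both. Its fall from the double to the triple mutant was -1.59 ± 0.17 (edgeR adjusted p = 1.9e-05), a comparison in which 0 of the 9 GATA genes changed.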

How the data were processed

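RNA of whole worms was made into SMART-Seq v4 libraries and read as paired ends, per the labels' protocols. Per the submitters' processing notes, STAR (no version given), featureCounts 1.5.1 and WBcel235 were used. The authors deposited raw counts per gene with no normalization, and 0 columns of other samples were present. Symbols and positions came from the gene name table and Ensembl release 115. No source used here gives the strand setting of the counting.

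The filter was filterByExpr with a minimum count of 10 and a minimum total of 15, and 18342 genes passed. All 12 libraries were fitted with a mean per genotype in edgeR 4.0.16 (R 4.3.3) with TMM scaling and robust quasi-likelihood F-tests, Benjamini-Hochberg adjusted over all tested genes. A standard error is the size of the log2 value over the root of its F, and intervals are 95%. The fit was tested on simulated data with 200 changed genes. Alternatives were DESeq2 1.42.0, its size factors, limma-voom 3.58.1, no filter, fewer samples, a replicate block and the last digit of the library names (1 or 2, meaning not given).

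Correlations used log2 of CPM plus 0.5. Intervals for folds are confidence intervals for a ratio of genotype means, based on the spread between libraries in the fit, and not ranges of the libraries. Members, lists and tests were chosen with earlier results of these data known. The rule for named genes took all 9 members in every comparison, up to 4 called genes per list and comparison with at least 5 CPM (some left out for length), and the 3 most correlated genes per member. Of the list genes, let-7 and opt-2 had no ID.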

Additional observations from a re-analysis of the deposited data

Results flagged for a closer look

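The effect of the spr mutations on elt-3 differed between the daf-2 and the N2 background by a log2 value of -0.74 (± 0.22 standard error, edgeR adjusted p = 0.048 for the interaction). In the daf-2 background elt-3 went from 24.9 ± 2.76 to 16.5 ± 1.43 CPM, and in the N2 background from 20.0 ± 3.04 to 22.2 ± 1.30 CPM (mean ± SD, n = 3 each). The difference did not pass in any of the 12 fits that leave out a library.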

How the results depend on the processing

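Of 1071 repeats of a gene's test under another setting, 990 kept direction and call, 53 lost the call, 4 gained it and 24, none of them called in either form, turned in direction. In daf-2 against N2 the count of called GATA genes went from 2 to 1 with the library name suffix as a term and to 0 among libraries of suffix 2, where N2 and the double mutant have 1 library each, assumed to vary like the others. With suffix 2 alone, 1 gene each was called for the double and for the triple mutant against N2, in place of 3. For the interaction (1 call) the count was 2 with DESeq2, which added elt-6 (also in daf-2 against N2, 3 calls), and 0 with DESeq2 size factors, with no filter, with the replicate block, with the suffix term and with suffix 2 alone. Leaving out 1 library gave 1 to 2 calls in daf-2 against N2 (1 without N2 replicate 3 or daf-2 replicate 1), 2 to 5 in the triple mutant against daf-2 (3 without daf-2 replicate 3, 2 without triple mutant replicate 1) and 0 throughout for the interaction.

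Same-numbered replicates did not deviate together (correlations of -0.0667 to 0.064 over 18 pairs), so the numbers are not read as pairs. With the replicate block, 2 GATA genes were called for daf-2 against N2, 3 for the triple and 2 for the double mutant against N2, 5 for the triple mutant against daf-2, 0 for triple against double and 0 for the interaction. The calls lost under it were those of elt-6 in the double mutant and elt-3 in the interaction.

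Log2 values that turned with suffix 2 alone were -0.005 for end-1 in the double mutant against N2, 0.00079 for elt-1 in the triple against the double mutant and 0.22 for end-3 in the interaction. Leaving out 1 library, values ran from -0.21 to 0.61 for elt-1, -0.12 to 0.08 for elt-2 and -0.31 to 0.02 for end-3 in daf-2 against N2. They ran from -0.07 to 0.24 for egl-18 between daf-2 and the triple mutant, and from -0.16 to 0.01 for elt-2 and -0.16 to 0.29 for end-1 in the double mutant against N2. For egl-18 they ran from -0.04 to 0.41 in the triple against the double mutant and from -0.3 to 0.01 in the triple mutant against N2, where elt-4 ran from -0.04 to 0.45. In the interaction they ran from -0.68 to 0.14 for elt-1 and from -0.31 to 0.06 for end-3. The cause was not tested.

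Over all genes, calls in the triple mutant against daf-2 were 2461, or 3977 with limma-voom and 1376 without daf-2 replicate 3. In the double mutant against N2 they were 2141, or 983 with only these groups, 943 without double mutant replicate 3 and 3139 without double mutant replicate 2. For the interaction they were 1526, or 2329 with DESeq2 and 772 to 2505 leaving out 1 library. In the triple mutant against N2 and against the double mutant, 4068 and 2739 became 2141 and 1801 with suffix 2 alone, and the latter 1582 without double mutant replicate 3. Counts of 14 to 114 per library limit the precision of end-1, and 10 to 158 that of end-3.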
